A study of Mus musculus with 9 samples.

Results

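Beta-klotho and the fibroblast growth factor (FGF) receptor genes were described in αTC1 cells, a glucagon-producing line derived from mouse pancreatic alpha cells. The set held 8 genes of the 33212 in the deposited count table: Klb, which encodes beta-klotho, the receptors Fgfr1, Fgfr2, Fgfr3, Fgfr4 and Fgfrl1, and the adaptors Frs2 and Frs3. They were taken by gene symbol, and the set was chosen with measured results of this same comparison known, so their differences between groups are given as a description, without p-values. Where one of them is said to be called, the word gives its place in the fit over all genes and supports nothing about the set. All 8 passed the filter on low counts, as did 14754 genes in all, although Fgfr4 reached the filter level of 0.139 CPM in 3 of 4 EPZ011989 and 2 of 5 DMSO libraries, and Fgfrl1 in 4 EPZ011989 and 2 DMSO libraries. Both groups were αTC1 cells in low-glucose medium, and were kept for 7 days in 4 µM EPZ011989 (4 libraries) or in DMSO, its solvent (5 libraries). The compound is an inhibitor of EZH2, the enzyme of the Polycomb complex PRC2 that methylates lysine 27 of histone H3. Poly-A RNA was sequenced, and the single comparison asks how the inhibitor alters gene expression. Replicates are named biological in the labels, with no word on separate cultures, so a p-value here covers the variation among these libraries, which may be technical. An established line at 1 dose and 1 time stands for alpha cells.

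FGF receptors are cell-surface tyrosine kinases that bind FGF together with heparan sulfate and signal through the docking proteins FRS2 and FRS3 to the RAS-ERK cascade. Beta-klotho is a single-pass membrane protein that lets endocrine FGFs act: with FGFR1 it forms the receptor for FGF21, and with FGFR4 that for FGF15, the mouse counterpart of human FGF19. FGFRL1 binds FGF but lacks the tyrosine kinase domain. In liver, fat and the pancreas this receptor system is known for its part in bile acid, lipid and glucose metabolism.

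The bases before a RefSeq transcript start of 5 of these genes are shown because they differ widely in CG dinucleotides, and because the genes behind them include Klb, which was lower with EPZ011989, Fgfr2, Fgfrl1 and Frs3, which were higher, and Frs2, which was not called. They are RefSeq promoter sequences of GRCm38.p6, 5′ to 3′ on the gene's strand, with each CG in capitals. Each is the longest stretch of the 250 bases before the RefSeq start that lies outside annotated exons. For Fgfr2, Fgfrl1 and Frs3 that start lies inside the longer annotated gene span, downstream of its first base, so the sequence is not the one before the whole gene. The Klb and Frs2 starts also lie inside the annotated span. Their sequences stop just before the first base of the gene, 97 and 60 bases short of the RefSeq start. The Frs3 sequence stops 9 bases short of its start. Klb lies at chr5:65348161-65348313 on the plus strand and Fgfr2 at chr7:130266809-130267058 on the minus strand. Fgfrl1 lies at chr5:108693979-108694228 on the plus strand, Frs2 at chr10:117148535-117148724 on the minus strand and Frs3 at chr17:47694957-47695197 on the plus strand.
Klb: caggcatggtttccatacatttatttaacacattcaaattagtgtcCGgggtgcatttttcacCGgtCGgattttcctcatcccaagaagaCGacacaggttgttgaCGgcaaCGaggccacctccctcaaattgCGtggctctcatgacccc
Fgfr2: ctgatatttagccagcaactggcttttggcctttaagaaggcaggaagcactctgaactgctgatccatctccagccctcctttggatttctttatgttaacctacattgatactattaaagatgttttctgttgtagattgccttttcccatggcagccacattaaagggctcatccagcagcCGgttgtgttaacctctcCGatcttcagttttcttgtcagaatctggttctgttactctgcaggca
Fgfrl1: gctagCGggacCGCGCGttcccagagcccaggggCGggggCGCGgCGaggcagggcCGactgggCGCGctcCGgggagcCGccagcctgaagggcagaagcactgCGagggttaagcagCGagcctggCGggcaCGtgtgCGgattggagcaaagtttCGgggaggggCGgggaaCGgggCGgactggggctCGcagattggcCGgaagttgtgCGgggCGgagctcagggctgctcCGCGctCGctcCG
Frs2: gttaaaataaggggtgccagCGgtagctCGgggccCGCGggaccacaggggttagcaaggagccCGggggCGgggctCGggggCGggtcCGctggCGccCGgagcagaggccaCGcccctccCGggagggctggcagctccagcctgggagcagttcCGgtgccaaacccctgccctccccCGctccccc
Frs3: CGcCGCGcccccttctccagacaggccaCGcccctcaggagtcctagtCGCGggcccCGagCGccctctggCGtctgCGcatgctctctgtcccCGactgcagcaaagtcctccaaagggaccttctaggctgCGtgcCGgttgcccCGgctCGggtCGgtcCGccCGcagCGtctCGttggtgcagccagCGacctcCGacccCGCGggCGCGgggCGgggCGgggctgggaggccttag

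RefSeq windows were found for 7 of the 8 genes, all but Fgfr1. The letters CG, which read the same on both strands, were counted over all 250 bases before the start, beside 32851 windows of the same length, whose median was 6. Fgfr2 had 2, and 81.2% of all windows had as many or more. Klb had 9, a number that 40.3% of windows reached. Fgfr4 had 15, reached by 27.3% of windows. Frs2 had 19, reached by 19.7%, and the windows at the 2 starts of Fgfr3 had 19 and 24, reached by 19.7% and 12.0%. Fgfrl1 and Frs3 had 30 each, reached by 5.94% of windows. Of the genes that were higher with EPZ011989, Fgfr2 alone stood at the CG-poor end of the scale and Frs3 and Fgfrl1 at the CG-rich end. Fgfr3, also higher, lay between them, as did Klb, which was lower. A count of letters is no measure of methylation or of histone marks, neither of which was measured here.

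**Figure D1:**
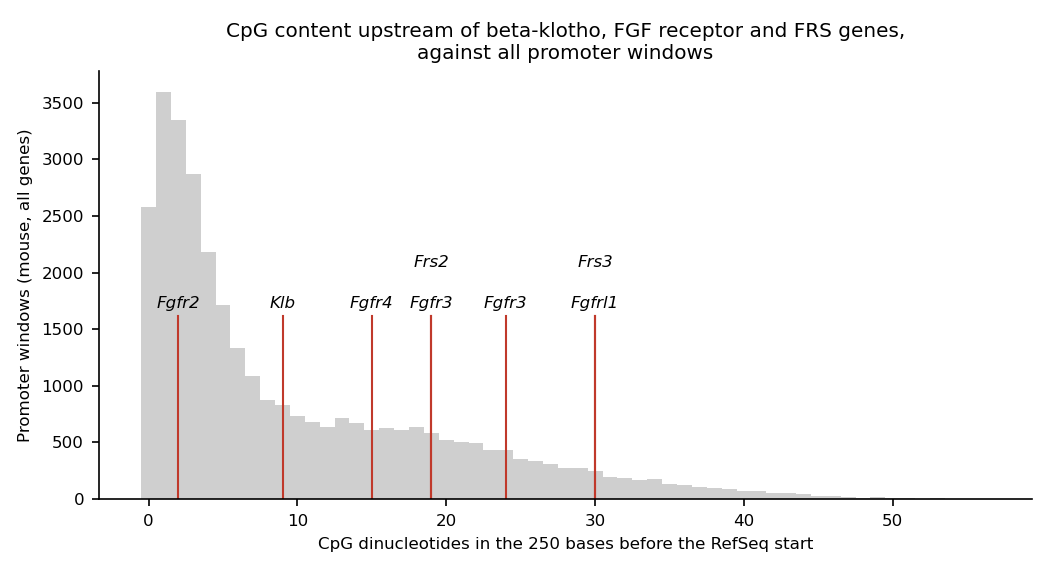
Number of CG dinucleotides in the 250 bases before each RefSeq start (x axis) against the number of mouse promoter windows with that number (y axis, grey bars), with red lines at the windows of the beta-klotho, FGF receptor and FRS genes. Fgfr2 stands at 2, Klb at 9, and Fgfrl1 and Frs3 at 30, against a median of 6 over 32851 windows.

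Total deposited counts per library were 60274140 to 74651782. The first principal component held 58.5% of the variance and separated the groups, and the second held 24.4%, with EPZ011989 replicates 2 and 4 at its ends. Of 10 alpha cell markers all were detected, led by the glucagon gene Gcg at 18630 ± 2338 CPM in EPZ011989 and 19280 ± 804 CPM in DMSO libraries (SD, n = 4 and 5), and only Gc was under 1 CPM in both groups. Over all genes tested, 2388 were called higher and 1174 lower with EPZ011989 (edgeR's quasi-likelihood test, Benjamini-Hochberg adjusted p under 0.05), and the split was 2735 to 776 with upper-quartile scaling. Genes called lower numbered 2377 without EPZ011989 replicate 2 and 781 without EPZ011989 replicate 3. CPM is a gene's count relative to the TMM-scaled total of its library. Many fragments appear to add about 4 counts each to the deposited table, so a floor of 12 counts per library (3 fragments) was used. Below it a gene is taken as not detected, and it covers counting error only.

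Klb, on chromosome 5 at 65348314 to 65384007 of GRCm38, was lower with EPZ011989. It had 9.22, 10.9, 8.76 and 8.22 CPM in EPZ011989 replicates 1 to 4, against 23.4, 21.6, 19.8, 20.3 and 21.8 CPM in DMSO replicates 1 to 5. Every EPZ011989 library lay below every DMSO library, and the 2 ranges were far apart relative to the spread within each group. The means were 9.28 ± 1.17 CPM with EPZ011989 and 21.4 ± 1.4 CPM with DMSO (SD, n = 4 and 5), a log2 fold change of -1.20 ± 0.10 (SE, from edgeR's fit), which is 0.435-fold. In bulk RNA, fewer cells that express a gene and less of its RNA per cell cannot be told apart. The log2 fold change lay between -1.30 and -1.15 in every alternative that was run.

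Of the 4 receptor kinase genes, Fgfr1, Fgfr2 and Fgfr3 were higher with EPZ011989. Fgfr1, the partner of beta-klotho in the FGF21 receptor, was close to undetected with DMSO. Its deposited counts were 268, 208, 246 and 251 in EPZ011989 replicates 1 to 4, against 12, 7, 23, 14 and 18 in DMSO replicates 1 to 5. In CPM these were 3.55, 2.93, 3.24 and 3.52 with EPZ011989 and 0.162, 0.103, 0.318, 0.236 and 0.257 with DMSO. The groups did not overlap, and only 3 of 5 DMSO libraries exceeded the floor of 12 counts. The log2 fold change was 3.93 ± 0.29 (SE), or 15.3-fold, from a DMSO level of a few fragments per library. Fgfr1 lies on chromosome 8 at 25513654 to 25575718, plus strand, and an unnamed gene on the opposite strand that shares exon positions with it had 0 counts in all libraries.

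Fgfr2 was the most abundant of the 4 receptor kinases per exon length in both groups. It had 12.6, 14.8, 10.1 and 9.60 CPM in EPZ011989 replicates 1 to 4, against 5.48, 4.61, 4.71, 5.20 and 4.76 CPM in DMSO replicates 1 to 5. EPZ011989 libraries all lay above DMSO libraries, with replicate 2 the highest of them. The log2 fold change was 1.25 ± 0.14 (SE), or 2.38-fold. The annotated Fgfr2 span on chromosome 7, from 130162451 to 133123350 on the minus strand, includes exon positions of Ctbp2, a transcriptional corepressor gene on the same strand. Ctbp2 itself was at 46.4 ± 4.1 CPM with EPZ011989 and 44.1 ± 2.5 CPM with DMSO (SD, n = 4 and 5; edgeR adjusted p = 0.568).

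Fgfr3, on chromosome 5 at 33721674 to 33737068, plus strand, encodes a receptor best known for restraining bone growth. It had 4.23, 5.22, 3.23 and 3.82 CPM in EPZ011989 replicates 1 to 4, against 1.01, 0.913, 1.08, 1.22 and 1.04 CPM in DMSO replicates 1 to 5. The lowest EPZ011989 library stood well above the highest DMSO library, and replicate 2 was again the highest with EPZ011989. The log2 fold change was 1.97 ± 0.18 (SE), or 3.91-fold. A gene on the opposite strand shares exon positions with Fgfr3 and is not analysed here. Gene-level counts do not tell the IIIb and IIIc splice forms of these receptors apart.

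Fgfr4, the partner of beta-klotho for FGF15, was near the floor in both groups. It lies on chromosome 13 at 55152640 to 55168759, plus strand. Its deposited counts were 46, 4, 13 and 12 in EPZ011989 replicates 1 to 4, against 5, 9, 12, 7 and 14 in DMSO replicates 1 to 5. The groups overlapped, and the higher EPZ011989 mean of 0.251 ± 0.245 CPM against 0.137 ± 0.050 CPM with DMSO (SD, n = 4 and 5) came from replicate 1. The log2 fold change of 0.87 ± 0.67 (SE) turned to -0.068 without that library. No difference in Fgfr4 was detectable at this depth.

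Fgfrl1, the receptor without a kinase domain, lies on chromosome 5 at 108692382 to 108706924, plus strand. It had 28, 63, 48 and 63 counts in EPZ011989 replicates 1 to 4, against 7, 21, 5, 22 and 5 counts in DMSO replicates 1 to 5. The groups touched: EPZ011989 replicate 1 and DMSO replicate 4 were both at 0.371 CPM. Means were 0.694 ± 0.246 CPM with EPZ011989 and 0.183 ± 0.145 CPM with DMSO (SD, n = 4 and 5), with a log2 fold change of 1.93 ± 0.59 (SE). Its call as higher was lost without DMSO replicate 1, 3 or 5 (log2 fold change 1.73, 1.69 and 1.70) and without EPZ011989 replicate 2, 3 or 4 (1.78, 1.96 and 1.76). It was also lost without EPZ011989 replicates 2 and 4 together (1.46).

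The adaptors FRS2 and FRS3 are anchored to the inner face of the membrane, where active receptors phosphorylate them. Frs3, on chromosome 17 at 47689030 to 47704286, plus strand, had 12.8, 11.9, 11.6 and 11.3 CPM in EPZ011989 replicates 1 to 4. It had 5.93, 5.54, 5.36, 6.91 and 5.84 CPM in DMSO replicates 1 to 5. The groups were well apart and each was narrow, with a log2 fold change of 1.01 ± 0.10 (SE), or 2.02-fold. Frs3 shares exon positions with Tomm6os on the same strand, at 2.12 ± 0.20 CPM with EPZ011989 and 1.67 ± 0.19 CPM with DMSO (edgeR adjusted p = 0.168). It shares others with Frs3os on the opposite strand, at 0.319 ± 0.315 CPM with EPZ011989 and 0.180 ± 0.097 CPM with DMSO (SD, n = 4 and 5; edgeR adjusted p = 0.568).

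Frs2, on chromosome 10 at 117069427 to 117148534, minus strand, had 38.3, 68.1, 36.9 and 28.0 CPM in EPZ011989 replicates 1 to 4, against 61.3, 52.1, 56.2, 50.4 and 39.0 CPM in DMSO replicates 1 to 5. EPZ011989 replicate 2 was the highest of all 9 libraries and replicate 4 the lowest, so the groups overlapped. The log2 fold change was -0.27 ± 0.23 (SE) and was not called. It was called lower without EPZ011989 replicate 2 (-0.60) and without EPZ011989 replicates 2 and 4 (-0.46).

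The libraries also differed in how counts varied with exon length, and the exons of Frs2 cover 8747 bases. In EPZ011989 replicate 2, genes with 8000 exon bases stood 0.22 above their mean over the libraries on the log2 scale and genes with 1000 bases 0.09 below it. In EPZ011989 replicate 4 the same values were -0.11 and 0.17, and in DMSO replicate 5 they were -0.09 and 0.08. The library with the strongest excess of long genes had the most Frs2, and the library with the strongest deficit the least. Among EPZ011989 libraries, Klb and Fgfr2 were likewise highest in replicate 2 and lowest in replicate 4. Fgfr1, with 9875 exon bases, was instead lowest in replicate 2. The part of this length trend in the spread of Frs2 was not tested. With the length trend removed per library the log2 fold change of Frs2 was -0.33, still not called.

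**Figure D2:**
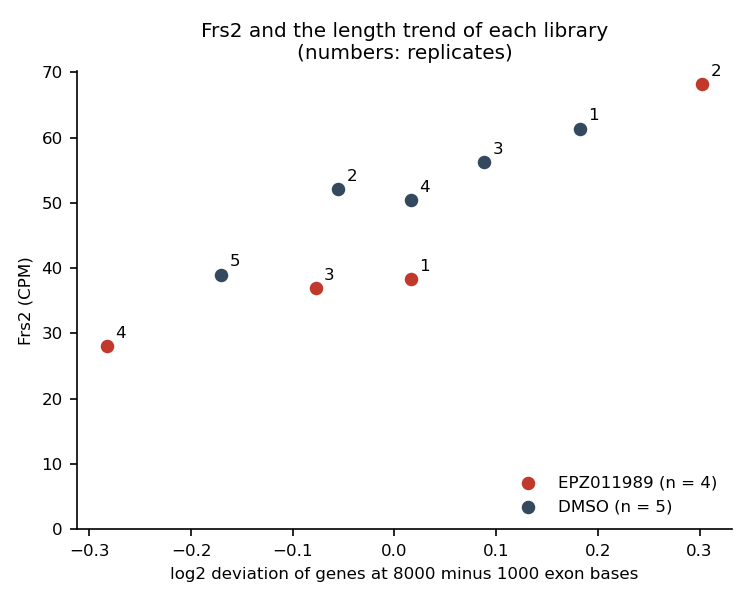
Frs2 level in CPM (y axis) against the log2 deviation of genes with 8000 exon bases minus that of genes with 1000 (x axis), 1 point per library, numbered by replicate, with EPZ011989 in red (n = 4) and DMSO in blue (n = 5). EPZ011989 replicate 2 at 68.1 CPM and replicate 4 at 28.0 CPM stand at the opposite ends of both axes.

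Together 5 of the 8 genes were called higher, beside 16.2% of all genes tested, and 1 was called lower, beside 7.96%. In 4 of them, Fgfr1, Fgfr2, Fgfr3 and Frs3, every EPZ011989 library exceeded every DMSO library, beside 16.1% of all genes, and in Klb alone every one lay below, beside 8.77%. Genes of low level were called higher more often than abundant genes: 33.4% of genes with a mean of 1 to 10 CPM and 20.8% of those under 1 CPM, against 11.7% at 10 to 100 CPM. The median log2 fold change of the set was 1.13, and over all genes tested it was 0.03. Since the set was selected on this comparison, nothing is read from these shares.

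**Figure D3:**
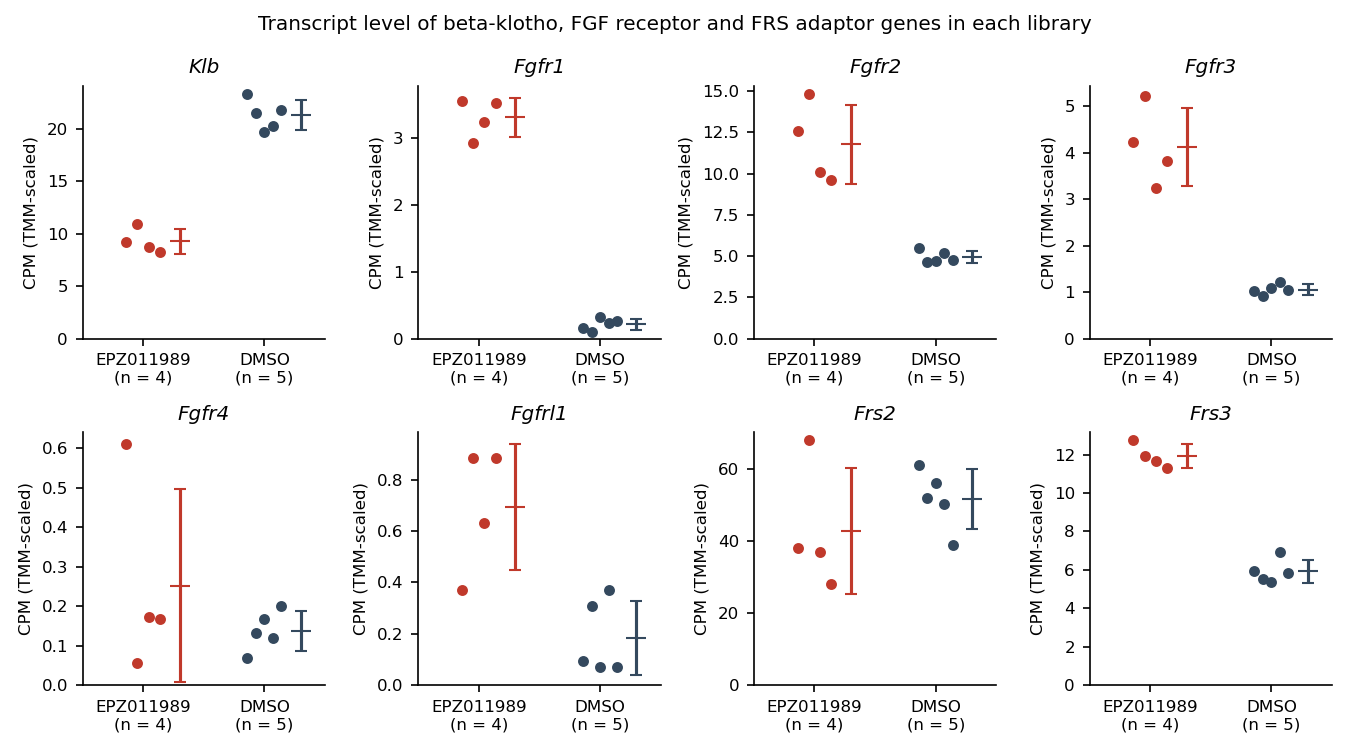
CPM of each gene in each library (y axes start at 0 and differ between panels), with EPZ011989 in red (n = 4), DMSO in blue (n = 5), and bars for the mean ± SD. Klb lies lower and Fgfr1, Fgfr2, Fgfr3 and Frs3 higher in all EPZ011989 libraries, while the groups overlap for Fgfr4, Fgfrl1 and Frs2.

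Levels can be compared between genes only per exon length, as CPM per kilobase of annotated exon. With EPZ011989 the order was Frs2 at 4.90 ± 2.00, Frs3 at 3.81 ± 0.20, Klb at 2.04 ± 0.26, Fgfr2 at 1.14 ± 0.23, Fgfr3 at 0.576 ± 0.117, Fgfr1 at 0.335 ± 0.029, Fgfrl1 at 0.249 ± 0.088 and Fgfr4 at 0.0710 ± 0.0691 CPM per kilobase (SD, n = 4). In that order the libraries' ranges overlapped between Frs2 and Frs3, between Fgfr1 and Fgfrl1 and between Fgfrl1 and Fgfr4. With DMSO it was Frs2 at 5.92 ± 0.95, Klb at 4.69 ± 0.31, Frs3 at 1.89 ± 0.19, Fgfr2 at 0.479 ± 0.036, Fgfr3 at 0.147 ± 0.015, Fgfrl1 at 0.0659 ± 0.0523, Fgfr4 at 0.0387 ± 0.0141 and Fgfr1 at 0.0218 ± 0.0085 CPM per kilobase (SD, n = 5). There the ranges overlapped between Frs2 and Klb and among the neighbours from Fgfr3 down to Fgfr1. Klb and Frs3 thus stood in opposite order in the groups, and Fgfr1 was last of all with DMSO but above Fgfrl1 and Fgfr4 in mean level with EPZ011989. Measured over the longest coding transcript in place of all annotated exons, Fgfr2 at 2.73 stood above Klb at 2.62 CPM per kilobase with EPZ011989, and with DMSO Fgfr4 at 0.0412 was last, below Fgfr1 at 0.0427.

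The ratio of co-receptor to receptors combines 2 differences that were known when the set was chosen, and is given as a description. Fgfr1 to Fgfr4 summed to 2.12 ± 0.34 CPM per kilobase with EPZ011989 and 0.687 ± 0.041 with DMSO (SD, n = 4 and 5). The ratio of Klb to this sum was 0.866, 0.970, 1.07 and 0.968 in EPZ011989 replicates 1 to 4, against 7.25, 7.62, 6.34, 6.10 and 6.96 in DMSO replicates 1 to 5. Beta-klotho transcripts therefore roughly equalled those of the receptor kinases with EPZ011989 and exceeded them severalfold in every DMSO library. Measured over the longest coding transcripts, the mean ratio was 0.595 with EPZ011989 and 4.09 with DMSO, so its level depends on the transcript length used. Fgfr2 made up 53.5% ± 3.5 of the receptor sum with EPZ011989 and 69.8% ± 3.6 with DMSO, and Fgfr1 16.2% ± 3.2 with EPZ011989 and 3.15% ± 1.19 with DMSO (SD, n = 4 and 5). Frs3 made up 45.3% ± 8.7 of the 2 adaptors with EPZ011989 and 24.5% ± 3.9 with DMSO, while their sum was 8.71 ± 2.05 CPM per kilobase with EPZ011989 and 7.82 ± 0.94 with DMSO.

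**Figure D4:**
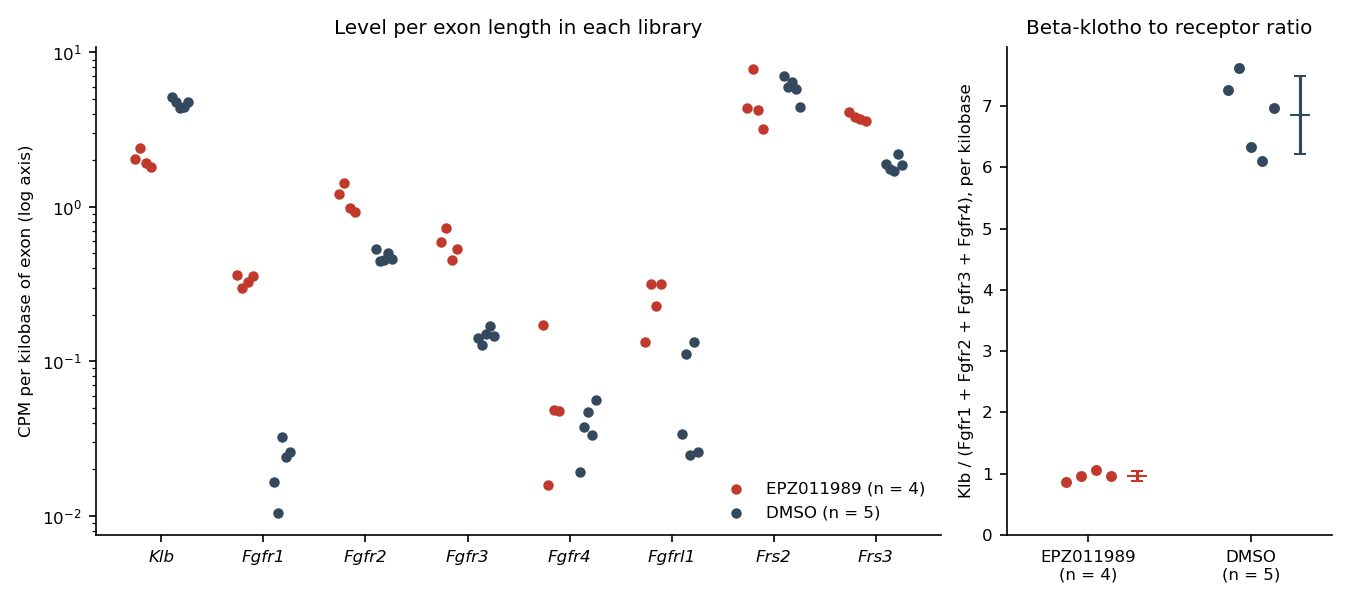
Left, CPM per kilobase of exon (log axis) of each gene in each library, with EPZ011989 in red (n = 4) and DMSO in blue (n = 5). Right, the ratio of Klb to the sum of Fgfr1 to Fgfr4 per kilobase (axis from 0), with the mean ± SD: EPZ011989 libraries lie between 0.866 and 1.07 and DMSO libraries between 6.10 and 7.62.

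The ligands were mostly at or near 0. Of 15 secreted FGF genes 3 passed the filter, with 1 higher and 1 lower, and Fgf4, Fgf6, Fgf8 and Fgf16 were at 0 counts in all libraries. Fgf9, a secreted growth factor, rose to 4.70 ± 0.39 CPM with EPZ011989, against 2.54 ± 0.46 CPM with DMSO (edgeR adjusted p = 0.00159). Fgf1, which binds all 4 receptor kinases, fell to 6.83 ± 0.92 CPM, against 9.54 ± 0.95 CPM with DMSO (SD, n = 4 and 5; edgeR adjusted p = 0.0132).

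Among the 3 endocrine ligands, those that need a klotho protein, Fgf15 was called higher. It had 125, 125, 128 and 151 counts in EPZ011989 replicates 1 to 4, against 0, 0, 9, 9 and 0 counts in DMSO replicates 1 to 5, so that every DMSO library was under the floor (edgeR adjusted p = 0.00118). It passed the filter on low counts only through its EPZ011989 libraries and could hardly have been called lower. In CPM it stood at 1.81 ± 0.21 with EPZ011989 and 0.0553 ± 0.0763 with DMSO (SD, n = 4 and 5), and unnamed genes on the opposite strand share exon positions with it. Fgf21 was too low to test, with 0, 0, 5 and 0 counts in EPZ011989 libraries and 4, 5, 0, 17 and 9 in DMSO libraries. Fgf23 was at 0.374 ± 0.178 CPM with EPZ011989 and 0.150 ± 0.141 CPM with DMSO and was not called (edgeR adjusted p = 0.284). The other klotho family genes were at the floor: Kl, the co-receptor gene for FGF23, had at most 4 counts in an EPZ011989 library and 10 in a DMSO library, and Lctl at most 11 in an EPZ011989 library and 7 in a DMSO library.

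Heparan sulfate chains hold FGF at its receptor. Of 23 tested genes for their synthesis, their core proteins and FGF-binding proteins (31 listed), 9 were called higher and none lower. This stood beside 16.2% and 7.96% of all genes, with a median log2 fold change of 0.27. Among those higher, Ndst3, Sdc3, Hspg2 and Gpc4 passed the filter on low counts only through their EPZ011989 libraries. They could hardly have been called lower, so nothing is read from the absence of lower calls. Gpc1, a cell-surface heparan sulfate proteoglycan, rose to 228 ± 15 CPM with EPZ011989, against 101 ± 3 CPM with DMSO (edgeR adjusted p = 7.34e-07). Sulf2, which trims sulfate groups from the chains, rose to 161 ± 10 CPM, against 74.6 ± 2.5 CPM with DMSO (edgeR adjusted p = 1.002e-06). Of the 4 syndecan genes, which encode membrane proteoglycans, 2 rose. Sdc2 rose to 22.9 ± 0.8 CPM, against 10.4 ± 0.7 CPM with DMSO (edgeR adjusted p = 3.15e-06). Sdc3 had 132 to 251 counts in EPZ011989 libraries and 0 to 17 in DMSO libraries (edgeR adjusted p = 3.62e-04).

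Of 24 tested genes for adaptors and the RAS-ERK cascade inside the cell (25 listed) none was called higher and 3 were called lower, beside 16.2% higher and 7.96% lower over all genes tested, with a median log2 fold change of -0.04. Shc1, an adaptor, fell to 102.5 ± 6.2 CPM with EPZ011989, against 125 ± 3 CPM with DMSO (edgeR adjusted p = 0.00495), and the kinase gene Araf to 95.2 ± 2.9 CPM, against 113 ± 3 CPM (SD, n = 4 and 5; edgeR adjusted p = 0.00655).

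Genes that ERK signalling induces, including its feedback inhibitors, were called in both directions. Of 16 tested (20 listed) 6 were called higher and 1 lower, beside 16.2% higher and 7.96% lower over all genes tested, with a median log2 fold change of 0.14. The gene called lower was Spred2, another inhibitor of the cascade, at 77.1 ± 8.9 CPM with EPZ011989 and 93.9 ± 5.8 CPM with DMSO (SD, n = 4 and 5; edgeR adjusted p = 0.0355), with groups that overlapped. Spry4, which restrains receptor signalling, rose to 6.94 ± 0.98 CPM with EPZ011989, against 4.19 ± 0.61 CPM with DMSO (edgeR adjusted p = 0.00362). Phlda1, a gene that ERK activity induces, rose to 61.8 ± 6.5 CPM, against 33.7 ± 2.3 CPM with DMSO (edgeR adjusted p = 3.78e-05). Flrt3, a membrane protein gene whose product binds FGF receptors, had 104, 134, 119 and 58 counts in EPZ011989 libraries and 4, 5, 0, 0 and 4 in DMSO libraries (edgeR adjusted p = 2.47e-04). Flrt3 passed the filter on low counts only through its EPZ011989 libraries. Etv4, an ETS transcription factor gene, rose to 0.836 ± 0.112 CPM, against 0.312 ± 0.151 CPM with DMSO (SD, n = 4 and 5; edgeR adjusted p = 0.0238). That call was lost without DMSO replicate 1 or 2 (edgeR adjusted p = 0.055 and 0.0512), without EPZ011989 replicate 1 or 3 (edgeR adjusted p = 0.0797 and 0.054) and without EPZ011989 replicates 2 and 4 (edgeR adjusted p = 0.0633). Its log2 fold change was 1.29, 1.38, 1.29, 1.43 and 1.52 in these fits in that order, against 1.41 with all libraries. Egr1, an immediate early gene, was at 28.7 ± 3.9 CPM with EPZ011989 and 28.3 ± 2.3 CPM with DMSO (edgeR adjusted p = 0.930), and Dusp6, an ERK phosphatase gene, at 19.5 ± 3.3 CPM with EPZ011989 and 23.8 ± 0.6 CPM with DMSO (edgeR adjusted p = 0.0741). Egr1, Dusp6 and Spred2 were picked after their values were seen.

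Of 4 tested genes for cell adhesion proteins that bind FGF receptors 3 were called higher, beside 16.2% of all genes tested. Their median log2 fold change was 0.99. The list was written with earlier results of these data known, so nothing is read from this share. L1cam rose to 5.27 ± 1.17 CPM with EPZ011989, against 1.16 ± 0.31 CPM with DMSO (edgeR adjusted p = 4.83e-05). Nrcam rose to 2.52 ± 0.51 CPM, against 0.951 ± 0.191 CPM with DMSO (edgeR adjusted p = 9.46e-04), and Ncam1 to 80.9 ± 16.5 CPM, against 53.9 ± 7.0 CPM (SD, n = 4 and 5; edgeR adjusted p = 0.0118). Cdh2, the N-cadherin gene, was the exception and was not called (edgeR adjusted p = 0.570).

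Of 5 other receptor tyrosine kinase genes whose products bind FRS2, 2 were tested. Ret, the GDNF receptor gene, had 136, 93, 101 and 105 counts in EPZ011989 libraries and 0, 7, 0, 0 and 9 in DMSO libraries (edgeR adjusted p = 0.00129). Ret passed the filter on low counts only through its EPZ011989 libraries. Ntrk2, the BDNF receptor gene, was abundant and nearly equal, at 423 ± 4 CPM with EPZ011989 and 424 ± 15 CPM with DMSO (SD, n = 4 and 5; edgeR adjusted p = 0.990). Regulators of receptor splicing numbered 4 tested of 6 listed, with none called.

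Of 9 known regulators of Klb and FGF21 in metabolic tissue 5 were tested, with 2 higher, none lower and a median log2 fold change of -0.06. Rxra, the gene for a partner of many nuclear receptors, rose to 59.9 ± 5.4 CPM with EPZ011989, against 41.2 ± 2.7 CPM with DMSO (edgeR adjusted p = 6.56e-04). Ppara, known in liver as an activator of Fgf21, rose to 1.60 ± 0.60 CPM, against 0.648 ± 0.239 CPM with DMSO (SD, n = 4 and 5; edgeR adjusted p = 0.0179). Over these 10 lists 23 genes were called higher and 5 lower, beside 16.2% higher and 7.96% lower over all genes tested. Among those higher, Ndst3, Sdc3, Hspg2, Gpc4, Fgf15, Flrt3 and Ret passed the filter on low counts only through their EPZ011989 libraries. These genes could hardly have been called lower. The lists differ in the number of genes tested and were written with earlier results of these data known. Nothing is therefore read from 23 against 5. The number lower was 10 with DESeq2, 13 with the length trend removed, 3 with library size alone, 14 without EPZ011989 replicate 2, 3 without EPZ011989 replicate 3, and 8 without EPZ011989 replicates 2 and 4. Exons of 9 of the 20 genes taken from the lists by rule overlap those of another gene, among them Gpc1, Sulf2, Sdc3, Phlda1, Fgf15, L1cam, Ncam1 and Araf.

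**Figure D5:**
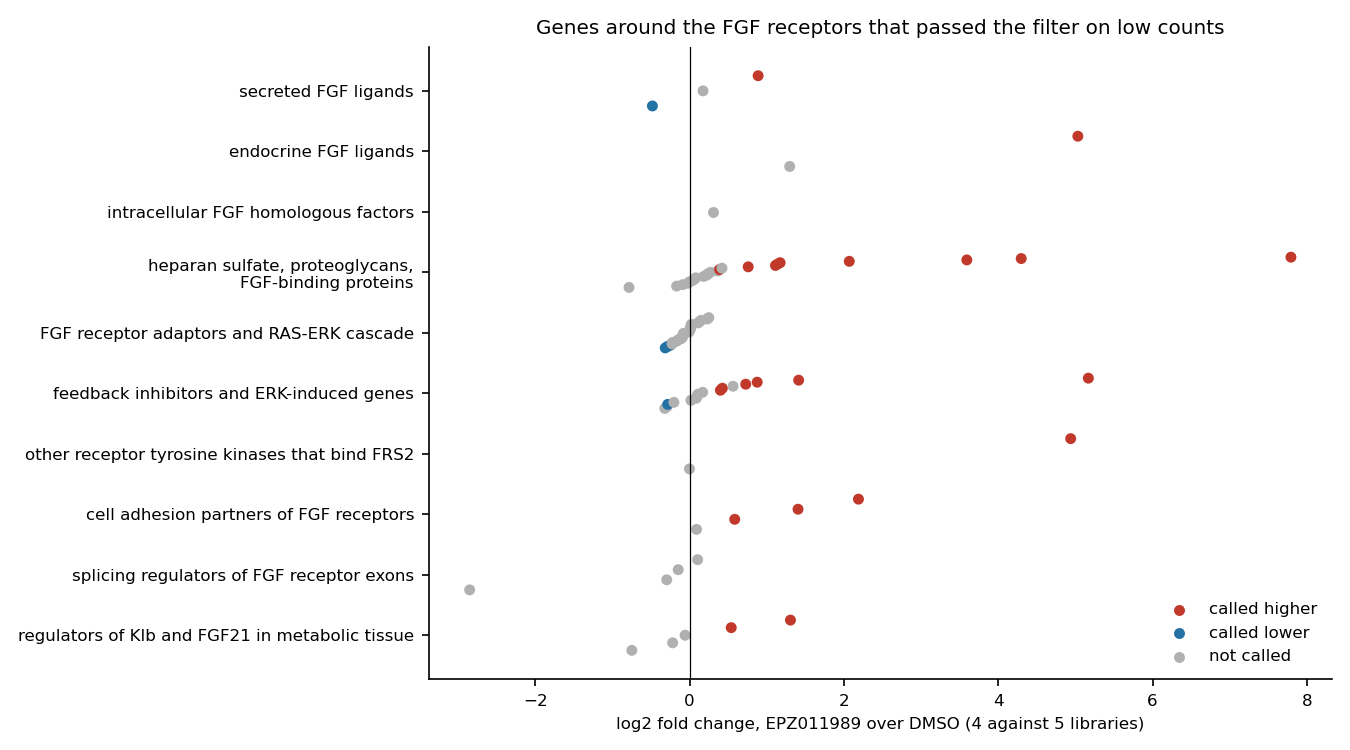
Log2 fold change, EPZ011989 over DMSO (x axis, 4 against 5 libraries), of each tested gene of the 10 lists around the FGF receptors (rows), coloured by the edgeR call at an adjusted p under 0.05. Calls lie mainly to the right, 23 higher against 5 lower, and some of those higher passed the filter only through EPZ011989 libraries. The point beyond 7 is Ndst3, at 0 counts in all DMSO libraries, whose fitted value depends on the fit's prior count.

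Markers of several other cell types also differed in level between the groups. Over all genes tested 16.2% were called higher and 7.96% lower. The share called higher was 33.4% at a mean of 1 to 10 CPM and 20.8% under 1 CPM, where many of these markers lay. Thy1, Col1a1, Pdgfrb, Kdr, Lyz2 and Iapp passed the filter on low counts only through their EPZ011989 libraries. They could hardly have been called lower. The summed level of 10 fibroblast and stellate markers was 31.0 to 42.3 CPM in EPZ011989 libraries and 7.31 to 10.01 CPM in DMSO libraries, with 4 of 6 tested called higher. Pdgfra, a growth factor receptor gene, made up most of it at 27.6 ± 5.9 CPM with EPZ011989 and 7.29 ± 0.96 CPM with DMSO (edgeR adjusted p = 6.85e-06). Thy1 was at 3.28 ± 0.74 CPM with EPZ011989 and at 0 with DMSO, Col1a1 at 1.15 ± 0.34 CPM with EPZ011989 and 0.128 ± 0.109 CPM with DMSO, and Pdgfrb at 0.777 ± 0.327 CPM with EPZ011989 and 0.0470 ± 0.0765 CPM with DMSO (SD, n = 4 and 5), all called higher by edgeR. The matrix and muscle markers Dcn, Lum and Acta2 were at most 0.0265 CPM on average with EPZ011989 and at 0 with DMSO. Sums of 7 endothelial markers were 1.98 to 3.45 CPM with EPZ011989 and 0.388 to 1.17 CPM with DMSO, with 2 of 4 tested called higher, Vwf at 1.58 ± 0.33 CPM with EPZ011989 and 0.638 ± 0.298 CPM with DMSO and Kdr at 0.314 ± 0.194 CPM with EPZ011989 and 0 CPM with DMSO (SD, n = 4 and 5). Cdh5 was at 0.230 CPM with EPZ011989 and 0 with DMSO. Sums of 7 macrophage and leukocyte markers were 5.29 to 6.82 CPM with EPZ011989 and 1.52 to 2.31 CPM with DMSO, with 1 of 3 called higher. This was Lyz2, at 3.76 ± 0.76 CPM with EPZ011989 and 0.289 ± 0.249 CPM with DMSO, while Itgam, at 1.19 ± 0.22 CPM with EPZ011989 and 0.445 ± 0.270 CPM with DMSO, was not called (SD, n = 4 and 5; edgeR adjusted p = 0.0549), with Tyrobp at 0 throughout and Ptprc at 0.0140 CPM with EPZ011989 and 0 with DMSO. Sums of 8 beta cell markers were 44.3 to 56.8 CPM with EPZ011989 and 38.3 to 43.5 CPM with DMSO, with 3 of 4 called higher and Ins1, Pdx1 and Ucn3 at 0 throughout. Nkx6-1 made up most of these sums and was not called. It was at 44.3 ± 4.2 CPM with EPZ011989 and 39.9 ± 2.4 CPM with DMSO (edgeR adjusted p = 0.221). Those called were Ins2, at 4.85 ± 1.46 CPM with EPZ011989 and 0.653 ± 0.243 CPM with DMSO, Mafa, at 1.78 ± 0.30 CPM with EPZ011989 and 0.541 ± 0.282 CPM with DMSO, and Iapp, at 0.841 ± 0.129 CPM with EPZ011989 and 0.0304 ± 0.0680 CPM with DMSO (SD, n = 4 and 5). Sums of 8 acinar and ductal markers were 11.0 to 15.2 CPM with EPZ011989 and 16.9 to 22.2 CPM with DMSO, with 2 of 4 called lower, among them Cela1 at 6.39 ± 0.95 CPM with EPZ011989 and 10.9 ± 1.6 CPM with DMSO (SD, n = 4 and 5). Prss2 and Amy2a2 were at 0 throughout. The part of these markers in the receptor results was not tested.

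Genes whose level followed Klb most closely over the 9 libraries were Rhobtb1 (Pearson r = 0.993), Orai2 (0.991), Tsr1 (0.990), Cyb5b (0.990) and Zc3h14 (0.989), out of 9769 whose mean reached 5 CPM. Rhobtb1 was at 43.9 CPM with EPZ011989 and 79.7 CPM with DMSO, and the other 4 were also lower with EPZ011989. For Fgfr2, the receptor with the highest level per kilobase in DMSO, they were Pdgfra (r = 0.995), Nrp2 (0.995), Atp7b (0.994), Tanc2 (0.993) and Rassf2 (0.991). Nrp2 was at 44.98 CPM with EPZ011989 and 17.6 CPM with DMSO. The libraries fall into 2 groups that these genes separate, and the coefficients are given as a description, with no test.

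The nearest tested protein-coding gene in each direction was taken for each of the 8, 16 genes in all. Of these, Ate1 lies inside the annotated Fgfr2 span and an unnamed gene model overlaps the start of Frs3. That gene model shares no annotated exon positions with Frs3. It was at 51.9 ± 17.4 CPM with EPZ011989 and 34.5 ± 11.4 CPM with DMSO (SD, n = 4 and 5, edgeR adjusted p = 0.218). None of the 16 was called higher, beside 16.2% of all genes, and 1 was called lower, beside 7.96%, and nothing is read from so few genes. The 1 was Rfc1, a DNA replication factor gene 12644 bases from Klb, at 160 ± 18 CPM with EPZ011989 and 199 ± 8 CPM with DMSO (SD, n = 4 and 5), with a log2 fold change of -0.31 (edgeR adjusted p = 0.0134) against -1.20 for Klb. Letm2, 2772 bases from Fgfr1, had a log2 fold change of 0.36 (edgeR adjusted p = 0.0998), against 3.93 for Fgfr1. Tacc3 and Letm1, which flank Fgfr3, had log2 fold changes of 0.24 and -0.11 (edgeR adjusted p = 0.187 and 0.542), against 1.97 for Fgfr3.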

How the data were processed

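Poly-A RNA-seq libraries of αTC1 cells were grouped by the treatment in the labels, 4 with EPZ011989 and 5 with DMSO. The authors deposited whole-number gene counts (33212 rows), which were used for all values. Their second table, a normalized signal of 20796 rows, held the deposited counts divided by 1 factor per library, and was used only to check this. HISAT2, StringTie, DESeq2 and the build mm10 are listed in the submitters' processing notes, with neither roles nor versions; strand use and annotation in counting were not given in the sources used here. Counts of 4 (3046 values) and 5 (2732) were more frequent than 2 (2108) or 3 (2160), so many fragments appear to add about 4 counts. Counts of 1 were more frequent still (3970 values), so not every fragment does.

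Genes were filtered with filterByExpr and tested with the robust quasi-likelihood test of edgeR 4.0.16 in R 4.3.3 (TMM factors, treatment as the only term, all 9 libraries), which was tested on simulated data. Benjamini-Hochberg adjustment ran over all 14754 genes tested, and a gene was called where its adjusted p was under 0.05. SE was taken as the size of the log2 fold change over the square root of F. CPM used TMM-scaled library sizes. Exon lengths, positions and overlaps came from GENCODE M21 on GRCm38, the assembly of mm10. Depth was 60274140 to 74651782 counts per library. With counts divided by 4, chi-square over degrees of freedom was at least 4.19 between replicates, more than counting noise gives, so none was counted as a duplicate.

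The 8 genes and all lists were chosen with earlier results of these data known. Named genes were those 8, up to 4 called genes by smallest p of each list, Kl and Lctl, and the 5 genes most like Klb and like Fgfr2 (Pearson r of log2(CPM + 1)); some of these are not reported here. Egr1, Dusp6, Spred2, Ntrk2, Cdh2, Fgf21, Fgf23, Ndst3, Hspg2, Gpc4, the neighbouring genes and the markers given with values fall outside this rule and were chosen after their values were seen. The rule for neighbouring genes was set after the values of the 8 genes were known. Alternatives were other scaling (RLE, upper quartile, or library size alone), other filters (none, or 1 CPM in 4 libraries), other tools (limma-voom from limma 3.58.1, and DESeq2 1.42.0), counts divided by 4, removal of the length trend, a replicate block, and leaving out each library or EPZ011989 replicates 2 and 4. Levels over the longest coding transcript were added after seeing the data.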

Additional observations from a re-analysis of the deposited data

Results flagged for a closer look

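Of 56 groups of values examined, 4 or 5 libraries each, 2 held a library far from the others relative to the range of its group. Chance alone flags about 1 in 20 groups. Shc1 was highest among DMSO libraries in replicate 1, at 130 CPM, and Ncam1 was lowest among DMSO libraries in replicate 5, at 41.7 CPM.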

How the results depend on the processing

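Log2 fold changes of Klb, Fgfr1, Fgfr2, Fgfr3 and Frs3 kept their direction and their call in all 20 alternatives. That of Fgfr4 reversed to -0.068 without EPZ011989 replicate 1, and leaving out a library in turn gave -0.068 to 1.19; Fgfr4 and Fgfrl1 could not be fitted with counts divided by 4 or with at least 1 CPM in 4 libraries. Genes called lower among the 8 numbered 2 without EPZ011989 replicates 2 and 4, and 1 to 2 with a library left out, against 1.

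Against 1174 genes called lower, there were 776 with upper-quartile factors, 1999 with the length trend removed, and 781 (without EPZ011989 replicate 3) to 2377 (without EPZ011989 replicate 2) with a library left out. The replicate block, on 8 libraries, gave 1525 genes higher and 527 lower, and among listed genes 15 higher and 2 lower. Under it Fgfrl1 (log2 fold change 1.89) lost its call, as did Araf, Ncam1, Ppara and Etv4 (edgeR adjusted p = 0.0574 to 0.0811). Against 5 listed genes called lower there were 3 with library size alone, 10 with DESeq2, 13 with the length trend removed, 8 without EPZ011989 replicates 2 and 4, and 3 to 14 with a library left out. The cause was not tested. Libraries of the same number did not deviate together (r from -0.26 to 0.108 over 4 pairs). With so few pairs, this cannot show whether the numbers pair the libraries. Without DMSO replicate 5 alone, which the block also drops, 2080 genes were higher and 1032 lower. Over the longest coding transcripts, the ratio of Klb to the receptor sum was 0.595 with EPZ011989 and 4.09 with DMSO.

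Fgfr4, Fgfrl1, Kl, Lctl, Fgf21 and, with DMSO, Fgfr1 and Fgf15 rest on few fragments. Many fragments appear to add about 4 counts, strand use is unknown, and whether replicates were separate cultures is not stated.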
